A study of Saccharomyces kudriavzevii and Saccharomyces cerevisiae and Kluyveromyces marxianus with 12 samples.

Results

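The genes described here are 50 assembly factors of the large (60S) ribosomal subunit of *Saccharomyces cerevisiae*. They were taken by their systematic identifiers from the 6017 genes of the count tables, and all 50 were found. The members hold the nucleolar, nuclear and cytoplasmic factors of this pathway, from MAK21 and ERB1 in the nucleolus to ARX1, NMD3 and LSG1 at export and in the cytoplasm.

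Ribosome assembly factors are proteins that bind the precursor of ribosomal RNA, fold and process it together with the ribosomal proteins, and then leave, so that they are absent from the mature ribosome. The 60S precursor forms in the nucleolus, passes into the nucleoplasm, is exported through nuclear pores and loses its last factors in the cytoplasm. In budding yeast the genes of these factors belong to the ribosome biogenesis regulon, whose mRNAs are known to fall in many stresses, and many of their promoters hold the PAC motif, bound by the repressors Dot6 and Tod6, and the RRPE motif, bound by the repressor Stb3.

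Poly(A) RNA of 3 yeast species was sequenced in 12 libraries, at the temperature of growth and after a heat shock chosen for each species. The 4 libraries used here are from *S. cerevisiae* BY4742, a haploid laboratory strain with the genotype MATα ura3Δ0 leu2Δ0 his3Δ1 lys2Δ0, which both groups shared. Cells growing in YPD with 2% dextrose were moved for 8 min to 33 °C, the temperature of growth (control), or to 40 °C (heat shock), with 2 biological replicates each. The groups therefore differ in temperature at 1 time point of 1 strain, and fewer transcripts made and more transcripts lost, or fewer cells and less RNA per cell, cannot be told apart.

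Counts on genes ranged from 18911098 to 23476002 per library, of which the 50 members received between 28954 and 201613. The deleted marker genes URA3, LEU2 and LYS2 had 0 counts in all 4 libraries. HIS3 was counted in each, but his3Δ1 removes only a piece of the gene and its counts check nothing. Of 5786 genes tested with edgeR's quasi-likelihood test, 32.7% were called lower and 33.7% higher after heat shock at a Benjamini-Hochberg adjusted p under 0.05, and the median log2 fold change of all genes was 0.03.

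The promoters of the members are shown first, because the members shared short sequences there. Each window ran from 250 bases before the start codon to 50 bases from it, in the R64 genome, and was searched on both strands for the PAC core (GATGAG), the full PAC motif (GCGATGAG), which contains the core, and RRPE (GAAAAATTT). A core and an RRPE can share at most an end letter, and a long A and T run such as that of NOG2 can match RRPE on both strands. Stretches around the matches of 11 members follow, 5′ to 3′ on the strand of the gene, with PAC core and RRPE matches on either strand in capitals (the reverse complements read CTCATC and AAATTTTTC). NOP7, SDA1, HAS1, DRS1 and NUG1 are among the members that fell most and carry overlapping cores. NOG1 (log2 fold change −3.09) and MAK21 (−3.06) also fell at least 8-fold and carry an RRPE but no overlapping cores. RLP7 (−2.53), NOP15 (−2.195) and RLP24 (−2.02) carry overlapping cores too, fell less and are not printed. RIX1 and JIP5 have no core, and SSF1 and SSF2 are close paralogs with unlike promoters.
NOP7, chrVII:695278-695329, plus strand: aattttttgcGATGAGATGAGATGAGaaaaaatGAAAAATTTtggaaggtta
SDA1, chrVII:982198-982228, minus strand: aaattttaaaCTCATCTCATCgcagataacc
HAS1, chrXIII:851677-851707, minus strand: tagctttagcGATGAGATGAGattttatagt
DRS1, chrXII:131600-131630, plus strand: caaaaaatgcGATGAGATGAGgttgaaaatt
NUG1, chrV:162610-162640, plus strand: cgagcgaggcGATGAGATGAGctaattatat
NOG1, chrXVI:370825-370885, plus strand: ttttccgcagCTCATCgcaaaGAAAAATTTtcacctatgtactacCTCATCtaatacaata
MAK21, chrIV:570464-570509, plus strand: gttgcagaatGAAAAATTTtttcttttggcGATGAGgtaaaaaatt
RIX1, chrVIII:493775-493803, plus strand: catcgcaagaAAATTTTTCaatattaaac
JIP5, chrXVI:878592-878620, plus strand: ttcatggttaGAAAAATTTtaacatagaa
SSF1, chrVIII:229143-229253, plus strand: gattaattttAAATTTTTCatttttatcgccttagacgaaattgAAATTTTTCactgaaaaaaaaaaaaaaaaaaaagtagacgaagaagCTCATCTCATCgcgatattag
SSF2, chrIV:1087450-1087475, plus strand: gtagatgcatCTCATCgacgggcttg

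The PAC core was found in the windows of 45 of the 50 members (90%, 95% Wilson interval 78.6 to 95.7), against 20.4% of all 6001 protein-coding windows of this length. The full PAC motif was found in 28 members (56%, interval 42.3 to 68.8), against 3.93% of all windows. RRPE was found in 26 members (52%, interval 38.5 to 65.2), against 6.08%. Both the core and RRPE stood in 22 members (44%), against 3.08%, and at least 1 of them stood in 49 (98%), against 23.4%. NOP53 had neither. RIX1, SPB1, NSA1, NOP53 and JIP5 had no core in the window, and the match of IPI3 lay after the start codon. A match is a description of the letters and was not tested as a binding site.

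The matches stood at similar distances from the start codon. Before the start, 44 members held 75 PAC cores at a median of −119 bases, with quartiles of −134.5 and −99, and 26 members held 29 RRPE matches at a median of −148 bases, with quartiles of −168 and −134. In REI1 and RRP14 a core spans the start codon itself. The annotation gives no transcription start sites, so distances are counted from the start codon, whose first base follows base −1.

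**Figure D1:**
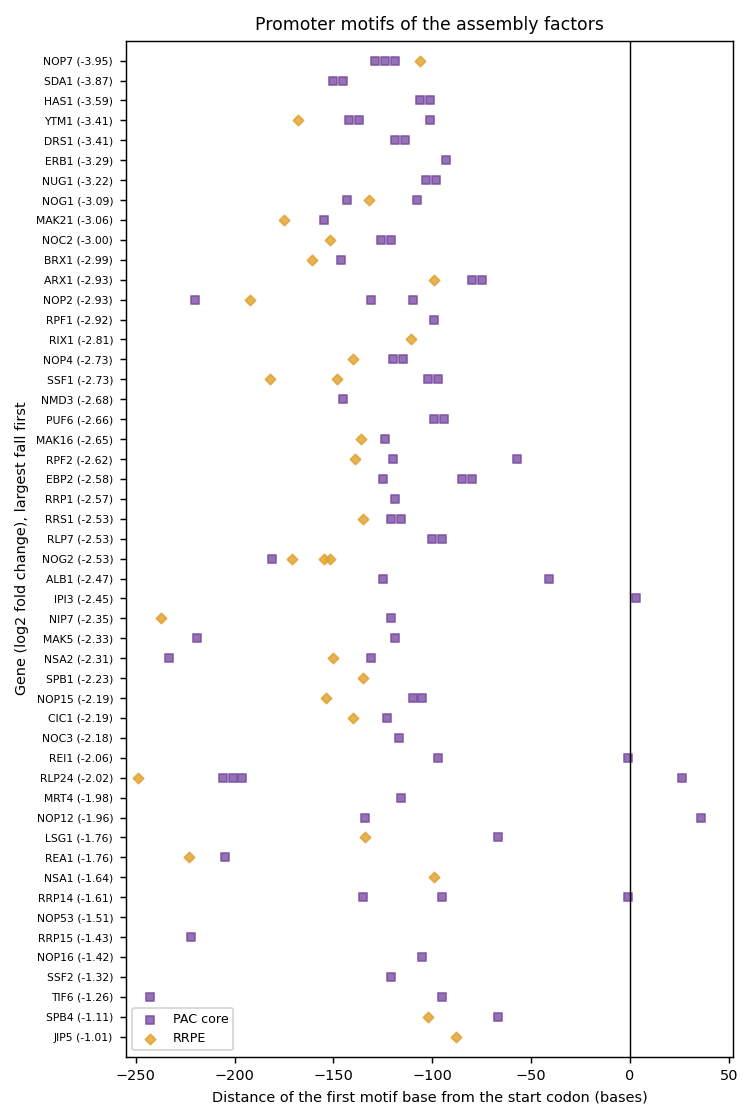
Distance in bases of each PAC core (squares) and RRPE match (diamonds) from the start codon (0, vertical line) for the 50 members, ordered from the largest fall at the top, with the log2 fold change in brackets. Most cores of the 44 members with one upstream sit near the median of −119 bases, and RRPE matches sit further out, near −148.

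All 50 members were lower after 8 min at 40 °C than at 33 °C, and no member was higher. The median log2 fold change was −2.53, a level of 17.3% of the control, beside a median of 0.03 over all genes, and the members ranged from −3.95 (NOP7) to −1.01 (JIP5). All 50 were called lower by edgeR's quasi-likelihood test (largest Benjamini-Hochberg adjusted p over the members 0.000467, for SPB4), against 32.7% of all genes tested. The count of members called higher was 0 by edgeR, 0 at an unadjusted p under 0.05 and 0 by DESeq2, which called all 50 lower, against 31.6% of its genes.

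The falls were large. All 50 were called and at least 2-fold lower, against 13.5% of genes tested. At least 4-fold lower were 37 of 50, against 5.95%, and at least 8-fold lower were 10 of 50, against 1.38%. JIP5 passed the 2-fold mark narrowly. Without control replicate 2 its log2 fold change was −0.89 and that of SPB4 −0.96, so neither reached 2-fold in that fit. The smallest fall of the members also missed 2-fold in other settings. It was −0.97 without heat shock replicate 1 and −0.98 with library totals. As a log2 ratio of mean TPM (pseudocount 0.1) it was −0.76.

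The summed share of counts on the members shows the same fall in each library. It was 0.689% (95% Wilson interval 0.685 to 0.692) and 0.859% (0.855 to 0.863) in the control replicates, and 0.154% (0.152 to 0.156) and 0.153% (0.151 to 0.155) in the heat shock replicates. The intervals cover counting error only. TPM (counts divided by gene length and scaled to the same total in every library) summed over the members to 4145 and 5161 in the controls and to 1167 and 1159 after heat shock. The heat shock libraries were close to each other and the controls were not: control replicate 2 lay above replicate 1 in 49 of 50 members, REI1 being the exception, against 49.3% of all genes, with a median log2 ratio of 0.28. Heat shock replicate 2 lay above replicate 1 in 29 of 50, against 50.1% of all genes, with a median log2 ratio of 0.04. In each of the 50 members both heat shock TPM values lay below both control values, which held for 28.7% of all genes with TPM.

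**Figure D2:**
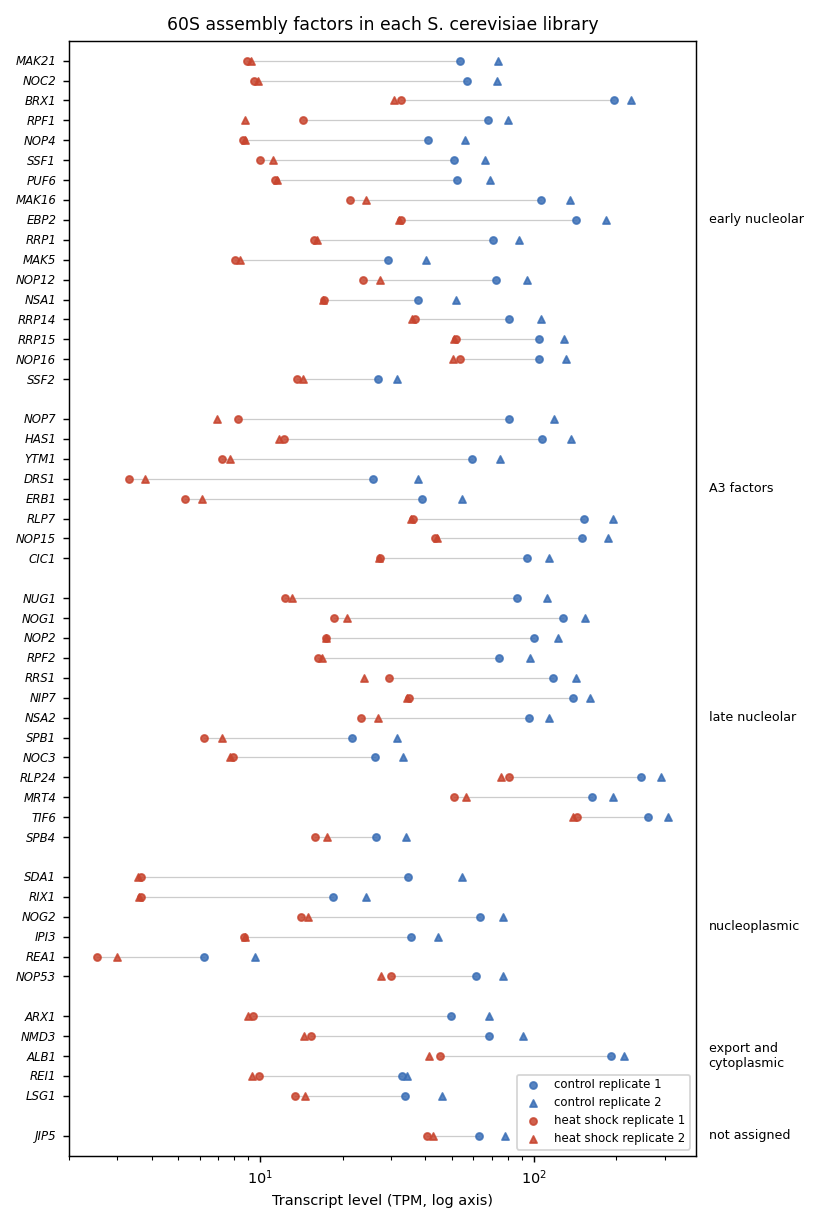
TPM (log axis) of each member in each library, blue for control (33 °C) and red for heat shock (40 °C), circles for replicate 1 and triangles for replicate 2, grouped by stage of assembly. The red points of every member lie left of its blue points, from REA1, between 2.54 and 9.57 TPM, to TIF6, between 139 and 308 TPM.

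For an account by role, each member was given a stage from general knowledge of the pathway: 17 early nucleolar factors, 8 A3 factors (proteins needed to remove the first internal spacer from 27S pre-rRNA), 13 late nucleolar factors, 6 nucleoplasmic factors, and 5 factors of export and the cytoplasm. JIP5 was not assigned. Every stage fell, and the A3 factors as assigned here had the lowest median, −3.35 (8 members, −3.95 to −2.19). The other medians were −2.58 for early nucleolar factors, −2.49 for nucleoplasmic factors, −2.47 for export and cytoplasmic factors and −2.31 for late nucleolar factors. The A3 range took in the medians of the other stages, and the A3 median and share depend on which members were assigned there. The stages were set with earlier results of these data known, and members are not replicates. The stages were therefore not tested against each other. Over the 4 ways to pair a control with a heat shock library, which share libraries, the A3 median ranged from −3.59 to −3.01 and that of all members from −2.63 to −2.37.

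**Figure D3:**
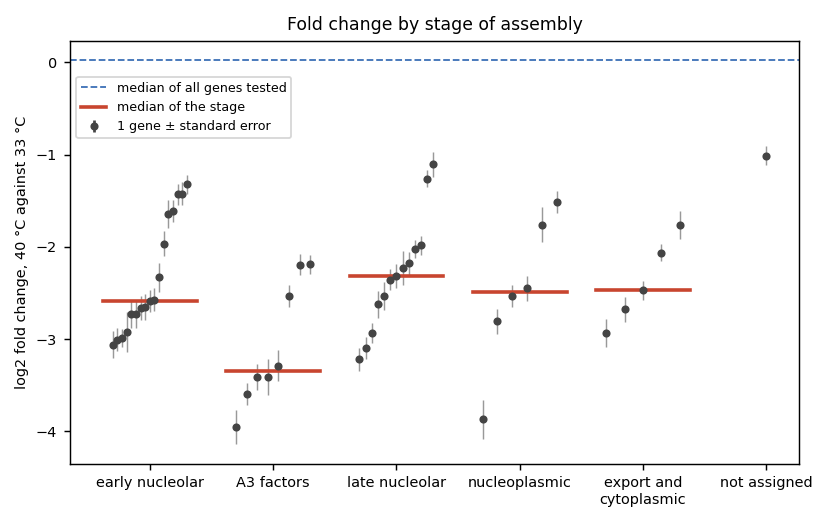
Log2 fold change (40 °C against 33 °C) of each member with its standard error, grouped by stage, with the stage median as a red bar and the median of all genes (0.03) as a dashed line. The A3 factors have the lowest median (−3.35) and each of the 5 stages spans more than 1 log2 unit.

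Among the A3 factors the Nop7, Erb1 and Ytm1 complex, counterpart of the mammalian PeBoW complex, fell together. NOP7 (YGR103W, chrVII:695417-697234, plus strand) was at 81.0 and 118 TPM in the controls and at 8.27 and 6.93 TPM after heat shock. Its groups lay far apart, and its log2 fold change of −3.95 ± 0.19 (SE, n = 2 and 2), 15.5-fold lower, was the largest fall of the 50. ERB1 (YMR049C, chrXIII:368094-370517, minus strand) was at 38.9 and 54.7 TPM in the controls and at 5.32 and 6.09 TPM after heat shock. YTM1 (YOR272W, chrXV:832813-834195, plus strand) was at 59.1 and 74.9 TPM and then at 7.24 and 7.73 TPM. In both genes the control replicates differed more than the heat shock replicates, and the groups did not overlap. Their log2 fold changes were −3.29 ± 0.17 and −3.41 ± 0.14.

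The DEAD-box RNA helicases of the A3 group fell as far. HAS1 (YMR290C, chrXIII:850074-851591, minus strand) was at 107 and 136 TPM in the controls and at 12.2 and 11.7 TPM after heat shock, giving a log2 fold change of −3.59 ± 0.12. DRS1 (YLL008W, chrXII:131729-133987, plus strand) was at 25.8 and 37.7 TPM and then at 3.32 and 3.77 TPM, a log2 fold change of −3.41 ± 0.19. The other A3 factors fell less: RLP7, which resembles a ribosomal protein, had a log2 fold change of −2.53, and NOP15, an RNA-binding protein, and CIC1, which binds pre-rRNA, had −2.19 each. Overlapping cores stood in the windows of NOP7, YTM1, HAS1 and DRS1 and also in those of RLP7 and NOP15, which fell less, while ERB1 and CIC1 each held a lone core. CIC1 (YHR052W, chrVIII:210848-211978, plus strand), the least changed of the group, was at 94.5 and 114 TPM in the controls and at 27.3 and 27.1 TPM after heat shock. Within the TPM of all members, the A3 share was 17.1% and 17.7% in the controls and 12.2% and 12.3% after heat shock, with no overlap between the groups.

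The early nucleolar factors join the first precursors. MAK21 (YDR060W, chrIV:570649-573726, plus strand), also known as Noc1 and partner of Noc2, was at 53.6 and 73.7 TPM in the controls and at 8.94 and 9.21 TPM after heat shock. It fell furthest of its stage, with a log2 fold change of −3.06 ± 0.15. NOC2 followed with −3.005 ± 0.13, and NOC3, the partner of Noc2 in later particles, fell by 2.18 on the log2 scale. BRX1 (YOL077C, chrXV:185848-186723, minus strand), a Brix-domain protein that binds pre-rRNA, was at 196 and 227 TPM in the controls and at 32.5 and 30.9 TPM after heat shock. It was among the 3 members with the highest control level and fell by 2.99 ± 0.10 on the log2 scale.

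The other Brix-domain members moved unevenly. RPF1 fell by 2.92 ± 0.21 on the log2 scale, with 67.8 and 80.0 TPM in the controls and 14.3 and 8.78 TPM after heat shock. By ratio, though not in TPM, the heat shock pair was wider apart than the control pair. RPF2 and its partner RRS1, which bring the 5S particle to the precursor, fell by 2.62 and 2.53 on the log2 scale. Of the remaining early nucleolar factors, the RNA-binding proteins NOP4 (−2.73) and PUF6 (−2.66) lay below the median of all members, as did MAK16 (−2.65), EBP2 (−2.58) and RRP1 (−2.57). The helicase MAK5 (−2.33) and the RNA-binding protein NOP12 (−1.96) lay above it. NSA1 (−1.64), RRP14 (−1.61), RRP15 (−1.43) and NOP16 (−1.42) fell by less. NOP16 (YER002W, chrV:156803-157498, plus strand) was at 104 and 131 TPM in the controls and at 53.8 and 50.5 TPM after heat shock, with a gap between the groups.

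SSF1 and SSF2 are paralogs that encode near-identical Brix-domain proteins, and their levels changed order. SSF1 (YHR066W, chrVIII:229335-230696, plus strand) was at 50.9 and 66.1 TPM in the controls and at 9.94 and 11.1 TPM after heat shock, giving a log2 fold change of −2.73 ± 0.15. SSF2 (YDR312W, chrIV:1087581-1088942, plus strand) was at 26.8 and 31.7 TPM and then at 13.5 and 14.3 TPM, a log2 fold change of −1.32 ± 0.10. SSF1 was thus the more abundant transcript per length at 33 °C and the less abundant at 40 °C. The ratio of SSF1 to SSF2 TPM was 1.90 and 2.09 in the controls and 0.734 and 0.774 after heat shock, a change of −1.40 in the log2 ratio (2-sided exact permutation p = 0.333, the smallest that 2 against 2 libraries allow). Their coding sequences were 92.1% identical over 1362 bases, and 4.04% of the 50-base stretches of each occurred elsewhere in the genome, against 0 in each of the other 48 members, so a small part of the reads could be lost or shared between them. As printed above, the promoter of SSF1 held overlapping cores and 2 RRPE matches, and that of SSF2 a lone core.

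The late nucleolar factors spanned the widest range of the nucleolar stages. NUG1 (YER006W, chrV:162723-164285, plus strand), a GTPase, was at 87.0 and 111 TPM in the controls and at 12.3 and 13.0 TPM after heat shock, giving a log2 fold change of −3.22 ± 0.12. NOG1 (YPL093W, chrXVI:370978-372921, plus strand), a GTPase that stays on the precursor from the nucleolus to the cytoplasm, was at 128 and 154 TPM and then at 18.6 and 20.6 TPM, a log2 fold change of −3.09 ± 0.12. The methyltransferases NOP2 and SPB1 had log2 fold changes of −2.93 and −2.23. SPB1 (YCL054W, chrIII:31449-33974, plus strand), among the 3 members with the lowest control level, was at 21.5 and 31.6 TPM in the controls and at 6.22 and 7.25 TPM after heat shock.

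The remaining late nucleolar members named here fell less than NUG1 and NOG1. RLP24 (YLR009W, chrXII:166537-167136, plus strand), which occupies the site of a later ribosomal protein, was at 246 and 290 TPM in the controls and at 80.9 and 76.0 TPM after heat shock, giving a log2 fold change of −2.02 ± 0.10. MRT4, the placeholder for the stalk protein P0, fell by 1.98 on the log2 scale. TIF6 (YPR016C, chrXVI:592332-593069, minus strand), the yeast eIF6 that prevents joining of the subunits, was at 261 and 308 TPM in the controls and at 144 and 139 TPM after heat shock. It had the highest level of the 50 in all 4 libraries, and its log2 fold change was −1.26 ± 0.09. SPB4 (YFL002C, chrVI:145114-146934, minus strand), a DEAD-box helicase, was at 26.4 and 33.9 TPM and then at 15.8 and 17.5 TPM, a log2 fold change of −1.11 ± 0.14. It was the least changed of its stage, and its window held both a core and an RRPE. NIP7 (−2.35) and NSA2 (−2.31) were near the stage median.

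In the nucleoplasm the fold changes diverged most between members. SDA1 (YGR245C, chrVII:979765-982068, minus strand), a component of nuclear 60S precursors, was at 34.7 and 54.3 TPM in the controls and at 3.66 and 3.56 TPM after heat shock. Its log2 fold change of −3.87 ± 0.21, 14.6-fold lower, was the next largest fall after NOP7. RIX1 (YHR197W, chrVIII:493896-496187, plus strand), which gives its name to the Rix1 complex, was at 18.4 and 24.2 TPM and then at 3.65 and 3.60 TPM, a log2 fold change of −2.81 ± 0.14 with no core in its window. Its partner IPI3 fell by 2.45 on the log2 scale, and the GTPase NOG2 by 2.53.

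The giant AAA ATPase REA1 (YLR106C, also called MDN1, chrXII:349006-363738, minus strand), which strips factors from the precursor, had the lowest TPM of the 50 in every library, 6.20 and 9.57 in the controls and 2.54 and 2.998 after heat shock. Its long coding sequence of 14733 bases still gave 975 counts or more per library, and its log2 fold change was −1.76 ± 0.19. NOP53 (YPL146C, chrXVI:276162-277529, minus strand), an adaptor for the exosome, was at 61.6 and 76.7 TPM in the controls and at 30.0 and 27.6 TPM after heat shock. It was the least changed nucleoplasmic factor (−1.51 ± 0.12) and the member with neither motif.

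At export and in the cytoplasm all 5 factors fell. ARX1 (YDR101C, chrIV:655686-657467, minus strand), an export factor, was at 49.8 and 68.4 TPM in the controls and at 9.39 and 8.98 TPM after heat shock, giving a log2 fold change of −2.93 ± 0.15. NMD3 (YHR170W, chrVIII:443828-445384, plus strand), the adaptor to the export receptor, was at 68.7 and 91.3 TPM and then at 15.4 and 14.4 TPM, a log2 fold change of −2.68 ± 0.14. LSG1 (YGL099W, chrVII:314631-316553, plus strand), the cytoplasmic GTPase that releases Nmd3, was at 33.7 and 45.9 TPM and then at 13.4 and 14.5 TPM, a log2 fold change of −1.76 ± 0.15. LSG1 was the least changed of the stage, and in each of these genes the groups did not overlap. ALB1, partner of Arx1, fell by 2.47 on the log2 scale.

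REI1, which recycles Arx1 in the cytoplasm, fell by 2.06 ± 0.09 on the log2 scale, whereas its paralog REH1, which is not a member, rose. REI1 was at 32.8 and 34.4 TPM in the controls and at 9.90 and 9.28 TPM after heat shock. REH1 was at 40.1 and 39.7 TPM and then at 68.7 and 75.9 TPM, a log2 fold change of 0.60 ± 0.10 (adjusted p = 0.00181 by edgeR's quasi-likelihood test). The ratio of REI1 to REH1 TPM went from 0.818 and 0.866 to 0.144 and 0.122, a change of −2.67 in the log2 ratio (2-sided exact permutation p = 0.333, the smallest possible). The pair was 61.5% identical over 1126 aligned bases, with no identical run beyond 11 bases. REI1 overlaps the opposite-strand gene SLM6 over all 453 bases of the latter, and counting ignored strand, so reads of the 2 genes cannot be told apart there. SLM6 had 0 counts in all libraries, which the overlap alone can give when reads in both genes are credited to neither, so the 0 says nothing of SLM6 and the TPM of REI1 may be understated.

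JIP5 (YPR169W, chrXVI:878690-880168, plus strand), the member with no stage, was at 63.0 and 78.0 TPM in the controls and at 40.7 and 42.5 TPM after heat shock. The groups did not overlap, and its log2 fold change of −1.01 ± 0.11 was the smallest fall of the 50. Its window held an RRPE and no core.

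Early factors had a slightly lower median than late factors, by an amount that depended on the grouping and on 1 library. Early factors (the 38 of the nucleolar stages) had a median log2 fold change of −2.55, and late factors (the 11 of the nucleoplasm, export and cytoplasm) −2.47, a difference of −0.08. Over the 4 single pairs of libraries the difference lay between −0.11 and −0.03. Without control replicate 2 it was −0.01. With the late nucleolar factors counted as late it was −0.25, and for early nucleolar and A3 factors against export and cytoplasmic factors it was −0.18. The late share of the TPM of both was 14.6% and 14.5% in the controls and 13.9% and 13.4% after heat shock. The late share was thus lower in both heat shock libraries than in both controls, by little beside the spread within each stage.

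By protein class, the Nop7 complex (3 members) had the lowest median (−3.41), followed by the Noc proteins (3, −3.005), helicases (4, −2.87), GTPases (4, −2.81), Brix-domain proteins (5, −2.73), the Rix1 complex (2, −2.63), methyltransferases (2, −2.58), RNA-binding proteins (4, −2.43) and proteins resembling ribosomal proteins (3, −2.02). The range within a class was often wider than the gaps between classes. The helicases ran from −3.59 (HAS1) to −1.11 (SPB4) and the GTPases from −3.22 (NUG1) to −1.76 (LSG1).

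The fold change showed no relation to the control level over the 50 members (Spearman −0.02). It had a Spearman correlation of −0.36 with coding length and a Pearson correlation of 0.02. REA1, at 14733 bases, is far longer than the next longest member, MAK21 at 3078, and the Pearson value without REA1 was not calculated. The Spearman correlation with the log2 ratio of the control replicates was −0.30, and control replicate 2 enters both measures. These are descriptions over genes that share the same 4 libraries.

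Set beside the motifs, members with overlapping PAC cores had a lower median than those with separate or lone cores. The 16 members with 2 cores that share an end letter, as printed for NOP7, SDA1, HAS1, DRS1, NUG1 and SSF1, had a median log2 fold change of −2.83, and 7 of them were at least 8-fold lower. These 16 ranged from −3.95 (NOP7) to −2.02 (RLP24). They include the A3 factors NOP7, YTM1, HAS1, DRS1, RLP7 and NOP15, so core class and stage were not separated. The 29 members with a core but no such pair had a median of −2.33, with 3 at least 8-fold lower, and the 5 with no core a median of −1.64, with 0. The 8-fold counts moved with the libraries: without control replicate 1 they were 8, 6 and 0, without control replicate 2 they were 6, 1 and 0, and without heat shock replicate 1 they were 6, 5 and 0. The medians kept this order with each library left out in turn. This pair was singled out after the values were seen, and it stood in 32% of member windows against 1.25% of all windows. RRPE divided the members less, with medians of −2.58 with its 9 letters GAAAAATTT and −2.46 without. The shorter AAAAATTT stood in 45 of the 50 windows. Most windows counted as without RRPE, that of NOP53 among them, thus still held these 8 letters.

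Genes outside the set with the same letters also tended to be lower, by less. Of 163 such genes tested with a core and an RRPE, 136 were called lower and 8 higher (median −1.55). Of 59 with overlapping cores, 53 were called lower and 3 higher (median −1.80). Of 4456 genes with neither motif, 1205 were called lower and 1662 higher (median 0.11). These counts include genes of the lists given further on. They also include genes that share an upstream region with a member, whose windows can hold the member's own matches. COX17, beside DRS1, is such a gene, and its window takes in the overlapping cores of DRS1.

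Of the members, 25 share their upstream region with a gene on the other strand, which gives a comparison within the same intergenic region. These neighbours fell less than the members but stood lower than genes in general. Of the 25, 17 were called lower (68%, against 32.7% of all genes), 5 higher and 3 neither, and 7 were at least 2-fold lower (28%, against 13.5%). Their median was −0.60, against −2.53 for the 25 members and 0.03 for all genes, over a median gap of 314 bases. NOP7 fell by 3.95 while GTF1, which starts 281 bases away, had a log2 fold change of 0.34. DRS1 fell by 3.41 while COX17, 314 bases away, rose by 0.79, and MAK21 fell by 3.06 while UBC5, 878 bases away, rose by 1.61. NOP2 and GCD10 fell together, with log2 fold changes of −2.93 and −2.40. TEF4, a translation elongation factor gene, was the only neighbour to fall further than its member, by 2.67 against 1.61 for RRP14. The neighbours were named after their values were seen, and 3 of them belong to the lists below (BMT2, RRP3 and LCP5).

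**Figure D4:**
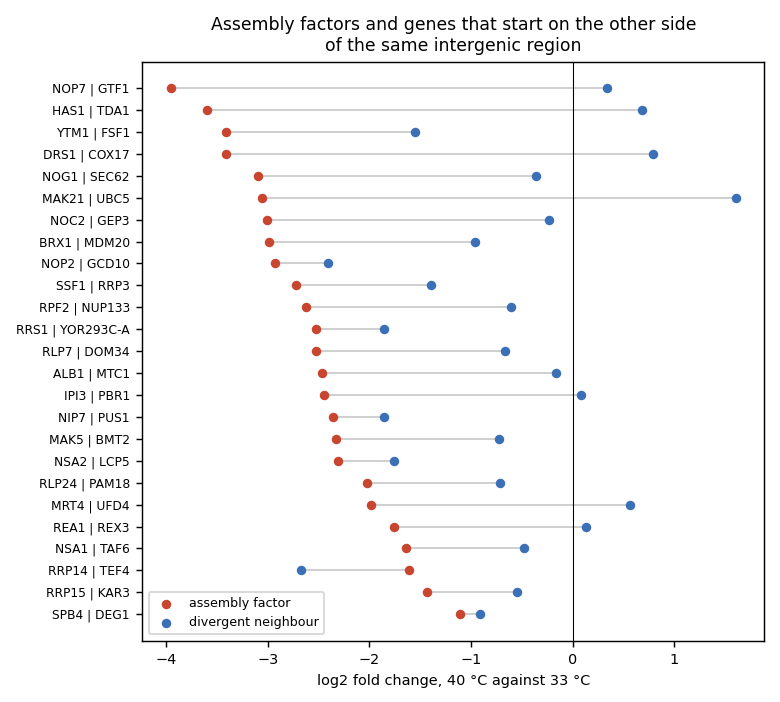
Log2 fold change (40 °C against 33 °C) of 25 members (red) and of the gene that starts on the other side of the same intergenic region (blue), joined by a line. In all pairs except RRP14 and TEF4 the member lies left of its neighbour, and 5 neighbours were called higher.

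Other genes of ribosome assembly were described from 2 lists. Of 47 further 60S factors, 46 were called lower and 1 higher (REH1), with 39 called and at least 2-fold lower and a median of −2.03, against −2.53 for the members. Of 61 genes of the small-subunit processome and its partners, which build the 40S subunit, 61 were called lower and 0 higher by edgeR, 58 of them at least 2-fold, with a median of −2.20. The 76 genes with symbols of 60S ribosomal proteins had a median of −2.71, with 75 called lower and 1 higher. Of all genes tested, 32.7% were called lower, and 13.5% were called and at least 2-fold lower. The median control level was 76.7 TPM for the members and 2600 TPM for the ribosomal protein genes. The assembly factors thus lay far below the ribosomal proteins in level per length, with a similar median fold change. Control replicate 2 lay above replicate 1 in 49 of 50 members, and likewise in 45 of 47 other 60S factors and 60 of 61 processome genes. In the ribosomal protein genes it did so in 27 of 76, and over all genes tested in 49.3%.

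**Figure D5:**
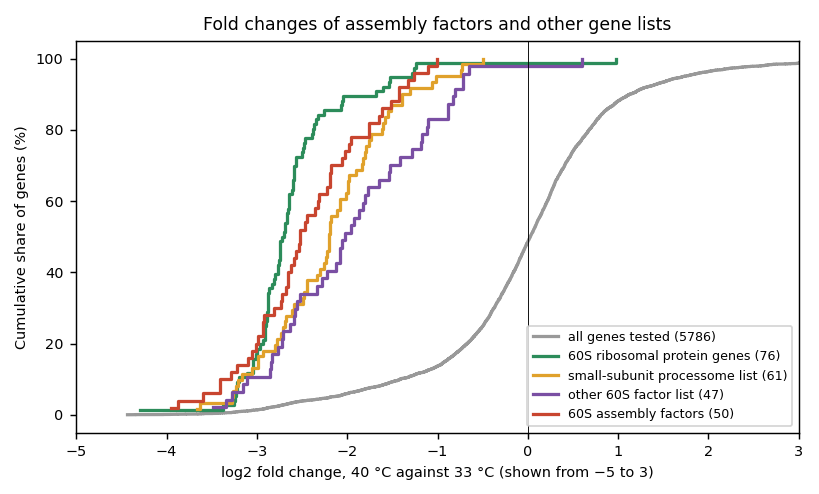
Cumulative share of genes (percent) by log2 fold change for the 50 members (red), 47 other 60S factors (purple), 61 small-subunit processome genes (orange), 76 genes of 60S ribosomal proteins (green) and all 5786 genes tested (grey). All 4 lists lie left of the grey curve, with medians of −2.53, −2.03, −2.20 and −2.71 against 0.03.

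The mRNAs of the factors known to bind these motifs did not move as a group. TOD6, which encodes a PAC repressor, was at 37.4 and 46.4 TPM in the controls and at 9.39 and 7.01 TPM after heat shock, giving a log2 fold change of −2.60 ± 0.17 (adjusted p = 2.1e-05, edgeR's quasi-likelihood test). Its paralog DOT6 was at 97.0 and 101 TPM and then at 115 and 96.3 TPM, with overlapping groups and a log2 fold change of −0.16 ± 0.11 (edgeR adjusted p = 0.227). STB3, the RRPE repressor, was at 30.7 and 32.1 TPM and then at 56.2 and 55.6 TPM, a log2 fold change of 0.58 ± 0.09 (edgeR adjusted p = 0.00135). SFP1, an activator of ribosome biogenesis genes, was at 23.3 and 27.3 TPM and then at 34.3 and 35.2 TPM, with a log2 fold change of 0.21 ± 0.11 that did not pass the test (edgeR adjusted p = 0.123). These are mRNA levels, and the binding or activity of the proteins was not measured.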

How the data were processed

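Poly(A) RNA of 4 *S. cerevisiae* libraries was analysed. The authors trimmed reads with Trim Galore 0.6.10, aligned them with STAR 2.7.10b to R64 and counted them on coding sequences without strand with HTSeq 2.0.2, and deposited whole-number counts per gene. HTSeq tallies of unassigned reads, between 5.91% and 6.60% of reads, were left out. The authors also calculated TPM from these counts and coding lengths and deposited them for all libraries in a stacked column, read here as a score; the 8 libraries of other species in it were not used. TPM recomputed from counts and lengths matched (largest relative difference 9.2e-15). Depth was 18911098 to 23476002 counts per library, so the spread between the 2 replicates, and not counting error, limits the precision of most members. The labels call the libraries biological replicates and do not say whether same-numbered libraries form pairs.

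Counts were fitted over all genes with edgeR 4.0.16 in R 4.3.3 (filterByExpr, TMM, glmQLFit and glmQLFTest, no covariates), with Benjamini-Hochberg adjustment over 5786 genes and a threshold of 0.05. The standard error is the size of the log2 fold change divided by the square root of F. The code was tested on simulated data. DESeq2 1.42.0, other scalings and filters, a replicate block, each library left out and TPM ratios were alternatives. Tables used pandas 2.3.3 and SciPy 1.17.1, and plots matplotlib 3.10.9, under Python 3.11.15. Promoter windows were read from the RefSeq R64 genome.

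The members, stages and gene lists were chosen with earlier results of these data known. Members given with all 4 values were NOG1, ERB1, MAK21, ARX1, NMD3 and LSG1, the 8 largest and 5 smallest falls, the 3 highest and 3 lowest control levels, the most and least changed of each stage, and SSF1 and SSF2; other genes given this way were REH1, DOT6, TOD6, STB3 and SFP1, with the deleted markers summarised. RPF1 and REI1 were added after their values were seen.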

Additional observations from a re-analysis of the deposited data

How the results depend on the processing

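All 50 members stayed called lower with DESeq2, DESeq2 size factors, library totals, no filter, a filter of 100 counts, the replicate block and each library left out (largest adjusted p 0.0078, edgeR); a lone library is then assumed to vary like the other group. Leaving out a library moved the members' median between −2.65 and −2.42, the early median between −2.70 and −2.43, the late median between −2.60 and −2.42 and the early minus late difference between −0.10 and −0.0072 (without control replicate 2). With the replicate block the members' median was −2.52 and 4302 genes were called in place of 3841; the deviations of same-numbered libraries had a correlation of 0.51 over 5786 genes, but with 2 pairs this is a hint from the data and not the design. As a log2 ratio of mean TPM, the median was −2.22 (pseudocount 1) or −2.27 (pseudocount 0.1) for the members, −2.25 or −2.30 for early factors and −2.19 or −2.21 for late factors, while the median of all genes moved from 0.03 to 0.26 or 0.28; the members less all genes gave −2.48 or −2.55, against −2.55 in the edgeR fit. The early minus late difference was −0.18 for early nucleolar and A3 factors against export and cytoplasmic factors, and −0.25 with late nucleolar factors counted as late, because other genes enter. The counts of 8-fold lower members by core class with a library left out were added after the data were seen. The shorter letters AAAAATTT were found in 90% of member windows and 14.1% of all windows, against 52% and 6.08% for RRPE. The cause of the moved values was not tested otherwise. Both groups have 2 libraries, so no exact test over libraries can go below 0.333.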

Other observations

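Of the members, 8 lie beside another gene of ribosome assembly from the lists described above. NOG2 (−2.53) follows ESF2 (−2.08), NOC3 (−2.18) follows CMS1 (−1.80), NMD3 (−2.68) follows DBP8 (−1.99) and RIX1 (−2.81) follows UTP9 (−2.11), each on the same strand. SSF1 (−2.73) and RRP3 (−1.40) are divergent neighbours, as are NSA2 (−2.31) and LCP5 (−1.76), and MAK5 (−2.33) and BMT2 (−0.72). RRP15 (−1.43) and NOC4 (−2.26) are convergent. All of these genes were called lower by edgeR's quasi-likelihood test, with the larger fall in the member in every pair except RRP15 and NOC4.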
